A study of Rattus norvegicus with 18 samples.

Results

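The enzymes of the mevalonate pathway up to farnesyl diphosphate were followed through stimulation with thyroid-stimulating hormone (TSH) in 2 established rat thyroid cell lines. The members were all probe sets to which the platform annotation gives 1 symbol, where that symbol was Acat2, Hmgcs1, Mvk, Mvd, Idi1 or Fdps. This rule took 10 of the 8740 probe sets tested, and they covered 5 of the 6 genes. Acat2, Mvk and Idi1 had 2 probe sets each, Fdps had 3 and Mvd had 1. No probe set carried the name Hmgcs1, and none carried Pmvk, the kinase between Mvk and Mvd, so these steps were not analysed here.

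The mevalonate pathway builds isoprenoids from acetyl-CoA in the cytosol and peroxisomes. Its product farnesyl diphosphate is the branch point to cholesterol, to dolichol, which carries sugars for protein glycosylation, to ubiquinone and to the lipid anchors of membrane-bound proteins. The genes of the pathway are known targets of SREBP2, a transcription factor released from the endoplasmic reticulum when membrane sterol is low. In the thyroid, dolichol-linked sugars are used to glycosylate thyroglobulin, the precursor of the thyroid hormones, whose synthesis TSH stimulates through its receptor and cAMP.

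The de-differentiated line FRT/TSHR has the TSH receptor in its name, and FRTL5 is the differentiated thyrocyte line. RNA was taken from unstimulated (basal) cells of each line and from cells given bovine TSH for 30 min or for 17 h, with 3 biological replicates in each of the 6 groups and 18 arrays in all. FRT/TSHR cells were kept in Coon's F12 medium and received TSH at 1 U/L, whereas FRTL5 cells had 5 days in a TSH-free medium called 5H and received 0.1 U/L. Both lines were deprived of serum before the hormone was added, and labelled cRNA was made from 10 µg of total RNA on every array. Line, medium and dose differed together, so comparisons between the lines cannot tell them apart. The labels name no untreated group taken at 30 min or at 17 h, so time in culture and TSH cannot be told apart either.

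The values are log2 expression per probe set as made by RMA, with a range of 2.61 to 13.58 over all arrays and a median per array of 5.47 to 5.59. Of 10 thyrocyte markers 7 were measured, and each marker was taken by its brightest probe set only. Their summed log2 level was 42.4 to 43.95 on the 9 FRT/TSHR arrays, against 53.03 to 60.2 on the 9 FRTL5 arrays. Thyroglobulin (Tg) averaged 4.17 ± 0.19 in basal FRT/TSHR cells and 11.21 ± 0.7 in basal FRTL5 cells, and the receptor gene Tshr averaged 6.6 ± 0.14 in FRT/TSHR and 6.56 ± 0.19 in FRTL5 (SD, n = 3 each). The summed levels of markers of fibroblasts, of endothelial cells, of leukocytes and of thyroid C cells overlapped between the lines. The FRTL5 arrays numbered 1 stood apart in signal along the beta-actin transcript, where the 3' minus 5' difference was 1.13 to 1.22 (log2) on these 3 arrays and -0.14 to 0.28 on the other 15. Member results whose call changes without the arrays numbered 1 are given with and without them.

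Promoter sequences of 5 measured genes were found in RefSeq (assembly GRCr8), and 3 of them are shown, since of the 5 members Acat2 and Fdps had the largest differences at 17 h in FRTL5 and Mvk did not pass the test. Each run holds the 250 bases before the annotated start, read 5′ to 3′ on the gene's strand. Capitals mark matches on either strand to 3 short motifs, which are the sterol regulatory element core CACNCCAC, the CCAAT box (ATTGG) and the GC box (GGGCGG). Gene Acat2 lies on the plus strand with its promoter at chr1:50100590-50100839, Mvk on the minus strand with its promoter at chr12:47819504-47819753, and Fdps on the minus strand with its promoter at chr2:176804817-176805066. Mvd and Idi1 lie on the minus strand at chr19:67404911-67414974 and chr17:66539761-66547524.
Acat2: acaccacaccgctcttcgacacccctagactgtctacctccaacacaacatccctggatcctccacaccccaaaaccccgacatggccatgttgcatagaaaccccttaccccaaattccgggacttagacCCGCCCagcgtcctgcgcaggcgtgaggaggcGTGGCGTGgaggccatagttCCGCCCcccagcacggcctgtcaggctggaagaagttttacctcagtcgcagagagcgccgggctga
Mvk: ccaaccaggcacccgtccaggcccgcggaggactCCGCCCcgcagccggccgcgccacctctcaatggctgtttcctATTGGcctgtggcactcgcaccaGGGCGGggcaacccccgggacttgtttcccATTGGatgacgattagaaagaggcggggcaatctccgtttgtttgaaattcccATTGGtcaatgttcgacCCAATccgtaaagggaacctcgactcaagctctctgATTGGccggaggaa
Fdps: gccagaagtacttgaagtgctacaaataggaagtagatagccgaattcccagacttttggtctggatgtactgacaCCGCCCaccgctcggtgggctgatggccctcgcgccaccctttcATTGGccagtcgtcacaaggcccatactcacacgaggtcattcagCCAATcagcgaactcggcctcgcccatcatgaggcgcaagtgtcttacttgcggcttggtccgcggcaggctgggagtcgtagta

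The CCAAT box was matched in 4 of the 5 promoters, and in 34.0% of the 33469 rat promoters of the same length. Mvk held 5 such matches, Idi1 and Fdps held 2 each, Mvd held 1, and the 250 bases of Acat2 held none. The GC box was matched in 4 of the 5, all but Idi1, and in 30.5% of all promoters. The sterol element core was matched in Acat2 alone, at 87 to 80 bases before the start, and in 4.89% of all promoters. The E-box CACGTG and the full cAMP response element TGACGTCA had no match in the 5 promoters, against 5.59% and 1.59% of all. The shorter TGACG was matched in Mvk, Mvd and Fdps, and in 18.2% of all promoters. A match here says only that these letters occur in the window, and none of the motifs overlaps another in the runs shown.

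Acat2 encodes the cytosolic thiolase that joins acetyl-CoA units into acetoacetyl-CoA, the entry step of the pathway. Its brighter probe set, rc_AA859980_g_at, read 10.41, 10.48 and 10.35 (log2, replicates 1, 2 and 3) in basal FRT/TSHR cells, 9.88, 10.22 and 10.51 after 30 min of TSH, and 9.07, 9.83 and 10.64 after 17 h. In FRTL5 cells it read 7.73, 7.33 and 7.29 at basal, 7.79, 7.15 and 7.38 after 30 min, and 9.49, 9.89 and 9.76 after 17 h. The FRTL5 arrays at 17 h thus reached the range of the FRT/TSHR arrays, and all other FRTL5 arrays lay below it. In order of mean level the groups were FRT/TSHR basal, FRT/TSHR 30 min, FRT/TSHR 17 h, FRTL5 17 h, FRTL5 basal and FRTL5 30 min. Neighbours in this order overlapped, except FRTL5 17 h and FRTL5 basal. The other probe set, rc_AA859980_at, is named for the same source sequence, so the 2 are not independent measures.

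Mvk encodes mevalonate kinase, which adds the first phosphate to mevalonate. Its probe set M29472_at read 8.64, 8.97 and 8.76 in basal FRT/TSHR cells, 8.26, 8.4 and 8.36 after 30 min, and 7.86, 8.58 and 8.57 after 17 h. In FRTL5 cells it read 6.4, 7.17 and 7.01 at basal, 6.69, 7.12 and 7.03 after 30 min, and 6.61, 7.65 and 7.54 after 17 h. Every FRT/TSHR array was above every FRTL5 array. In this probe set basal FRT/TSHR cells also lay above FRT/TSHR cells at 30 min, a difference that did not pass the test. The 30 min and 17 h means of FRT/TSHR were both 8.34, and FRTL5 followed in the order 17 h, 30 min and basal. Within FRTL5 the 3 times overlapped, and the array numbered 1 was the lowest of its group each time. The second probe set, rc_AA924198_s_at, ranged from 7.98 to 8.93 in FRT/TSHR and from 6.5 to 7.65 in FRTL5. By this probe set basal FRT/TSHR cells (8.57 to 8.93) overlapped those at 30 min (8.35 to 8.67).

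Mvd encodes the decarboxylase that turns mevalonate diphosphate into isopentenyl diphosphate, the isoprene building block. Probe set U53706_at read 8.42, 8.55 and 8.33 in basal FRT/TSHR cells, 8.17, 8.23 and 8.55 after 30 min, and 7.6, 7.95 and 8.8 after 17 h. In FRTL5 cells it read 6.3, 6.56 and 6.48 at basal, 6.55, 6.52 and 6.8 after 30 min, and 7.21, 8.17 and 7.99 after 17 h. The order of the group means was FRT/TSHR basal, 30 min and 17 h, then FRTL5 17 h, 30 min and basal. Neighbours overlapped in this order, except FRTL5 17 h and FRTL5 30 min.

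Idi1 encodes the isomerase that interconverts isopentenyl and dimethylallyl diphosphate. Probe set AF003835_at read 9.51, 8.69 and 8.83 in basal FRT/TSHR cells, 8.85, 8.62 and 9.42 after 30 min, and 8.59, 8.45 and 9.36 after 17 h. In FRTL5 cells it read 5.64, 5.22 and 5.03 at basal, 5.58, 5.36 and 5.47 after 30 min, and 7.25, 6.45 and 6.8 after 17 h. The order of group means was FRT/TSHR basal, 30 min and 17 h, then FRTL5 17 h, 30 min and basal, and the 3 FRT/TSHR groups overlapped. The lines did not overlap at any time, and the FRTL5 17 h arrays stood between the other FRTL5 arrays and FRT/TSHR. The other Idi1 probe set, rc_AI045395_at, was among the dimmest on the array, at percentile 12.8 of mean signal, and ranged from 3.3 to 4.18 over the 18 arrays. Detection above background was not measured, since only summarized values were used.

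Fdps encodes farnesyl diphosphate synthase, which joins isoprene units into geranyl and then farnesyl diphosphate. Probe set M89945mRNA_at, at percentile 97.1 of mean signal, read 11.52, 11.47 and 11.28 in basal FRT/TSHR cells, 11.33, 11.41 and 11.29 after 30 min, and 10.95, 11.26 and 11.24 after 17 h. In FRTL5 cells it read 8.31, 8.18 and 7.87 at basal, 8.51, 8.07 and 8.29 after 30 min, and 9.64, 10.57 and 10.14 after 17 h. The order of group means was FRT/TSHR basal, 30 min and 17 h, then FRTL5 17 h, 30 min and basal. FRTL5 17 h overlapped neither neighbour in this order, and the FRTL5 groups at basal and 30 min overlapped, as did FRT/TSHR at basal and 30 min. M89945mRNA_g_at is named for the same source sequence and ranged from 9.82 to 10.52 in FRT/TSHR and from 6.78 to 9.24 in FRTL5. The third, rc_AI180442_at, was the most variable member, with an SD of up to 1.45 between replicates, reached in FRT/TSHR at 30 min.

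**Figure D1:**
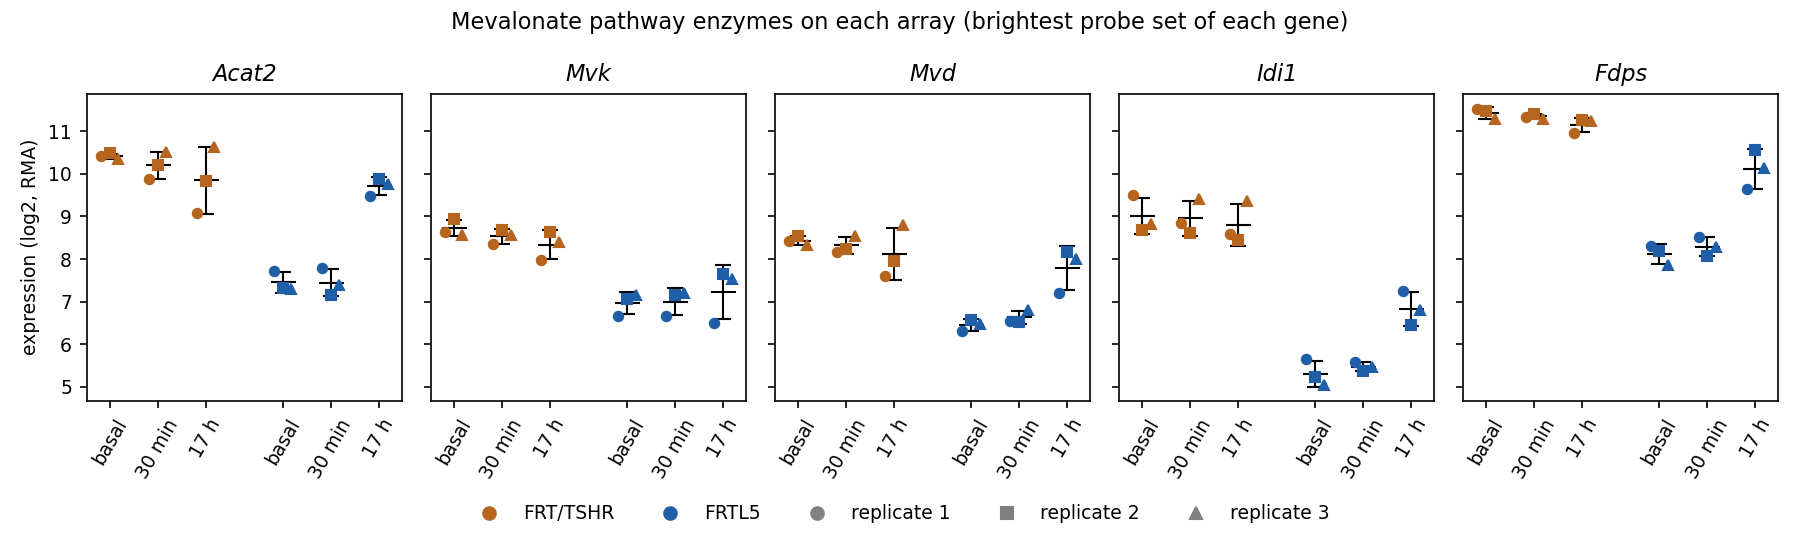
Expression (log2, RMA) of the brightest probe set of each measured mevalonate pathway gene on all 18 arrays, with FRT/TSHR left and FRTL5 right in each panel and basal, 30 min and 17 h of TSH along the axis. Points are arrays, with the shape giving the replicate number, and bars are the mean ± SD of 3. For Acat2 the FRTL5 17 h arrays, at 9.49 to 9.89, reach the FRT/TSHR range, and for Idi1, at 6.45 to 7.25, they do not.

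The first comparison set FRTL5 cells given TSH for 17 h against basal FRTL5 cells. The pathway was higher at its entry and at its end. Acat2 rose 4.8-fold, Fdps 3.98-fold, Idi1 2.9-fold and Mvd 2.53-fold by their brighter probe sets, whereas the mevalonate kinase gene Mvk was 1.2-fold and 1.32-fold higher by its probe sets and did not pass. Of the 10 probe sets 6 passed at an adjusted p under 0.05 as higher and 0 as lower (limma, Benjamini-Hochberg over 8740 probe sets), where 1.64% of all probe sets passed as higher. All 10 differences were positive, with a median of 1.51 (log2), beside 0.01 over all probe sets. A change in the share of responding cells and a change in RNA per cell cannot be told apart in these bulk samples.

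Acat2 averaged 9.71 ± 0.21 at 17 h and 7.45 ± 0.24 at basal (SD, n = 3 each), a difference of 2.26 ± 0.29 (SE, 95% interval 1.65 to 2.88, adjusted p = 0.000494). Its other probe set differed by 2.47 ± 0.32 with the same adjusted p. Fdps averaged 10.12 ± 0.47 at 17 h and 8.12 ± 0.23 at basal, a difference of 1.99 ± 0.19 (interval 1.59 to 2.39, adjusted p = 7.53e-05). This was the smallest adjusted p among the members, and the second Fdps probe set differed by 1.82 ± 0.18 (adjusted p = 8.21e-05). Idi1 averaged 6.83 ± 0.4 at 17 h and 5.3 ± 0.31 at basal, a difference of 1.54 ± 0.28 (interval 0.94 to 2.13, adjusted p = 0.0058). Mvd averaged 7.79 ± 0.51 at 17 h and 6.45 ± 0.13 at basal, a difference of 1.34 ± 0.26 (interval 0.79 to 1.9, adjusted p = 0.00882). Without replicate 2 of the 17 h group Mvd differed by 1.15 and no longer passed (adjusted p = 0.0507), nor did it in a fit of the compared arrays alone (adjusted p = 0.0656).

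The members that did not pass were of different kinds. Mvk averaged 7.27 ± 0.57 at 17 h and 6.86 ± 0.4 at basal by M29472_at, a difference of 0.41 ± 0.26 (interval -0.15 to 0.96, adjusted p = 0.631), and the other Mvk probe set differed by 0.26 ± 0.26 (interval -0.29 to 0.81). Without all arrays numbered 1, M29472_at differed by 0.51 ± 0.12 and passed (adjusted p = 0.0463), whereas rc_AA924198_s_at differed by 0.47 ± 0.15 and did not (adjusted p = 0.107). The dim Idi1 probe set rc_AI045395_at differed by 0.25 ± 0.18 (interval -0.14 to 0.63). The third Fdps probe set, rc_AI180442_at, read 5.64, 5.36 and 6.11 at 17 h, against 4.5, 4.38 and 3.8 at basal. Its difference of 1.48 ± 0.57 did not pass (adjusted p = 0.239), but passed with the replicate number as a block (1.48 ± 0.31, adjusted p = 0.00694) or, just, with the compared arrays alone (adjusted p = 0.0498). The 17 h and basal arrays did not overlap for 7 of the 10 probe sets, all higher at 17 h, as for 7.6% of all probe sets.

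Replicate numbers were taken to pair the arrays within a line, so 17 h minus basal is also given number by number. In FRTL5, Acat2 was higher by 1.76, 2.56 and 2.47 in replicates 1, 2 and 3, Fdps by 1.32, 2.39 and 2.27, Mvd by 0.91, 1.61 and 1.51, and Idi1 by 1.61, 1.23 and 1.78. The pair numbered 1 gave the smallest rise for Acat2, Fdps and Mvd, but not for Idi1. Mvk gave 0.2, 0.48 and 0.53 by M29472_at and -0.17, 0.57 and 0.37 by rc_AA924198_s_at. Without the arrays numbered 1, which differ in beta-actin signal, the FRTL5 differences at 17 h were 2.52 for Acat2, 2.33 for Fdps, 1.5 for Idi1 and 1.56 for Mvd, and all 4 passed. With the block 867 of all probe sets passed in either direction, against 311 without it, and 7 of the 10 members, against 6.

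**Figure D2:**
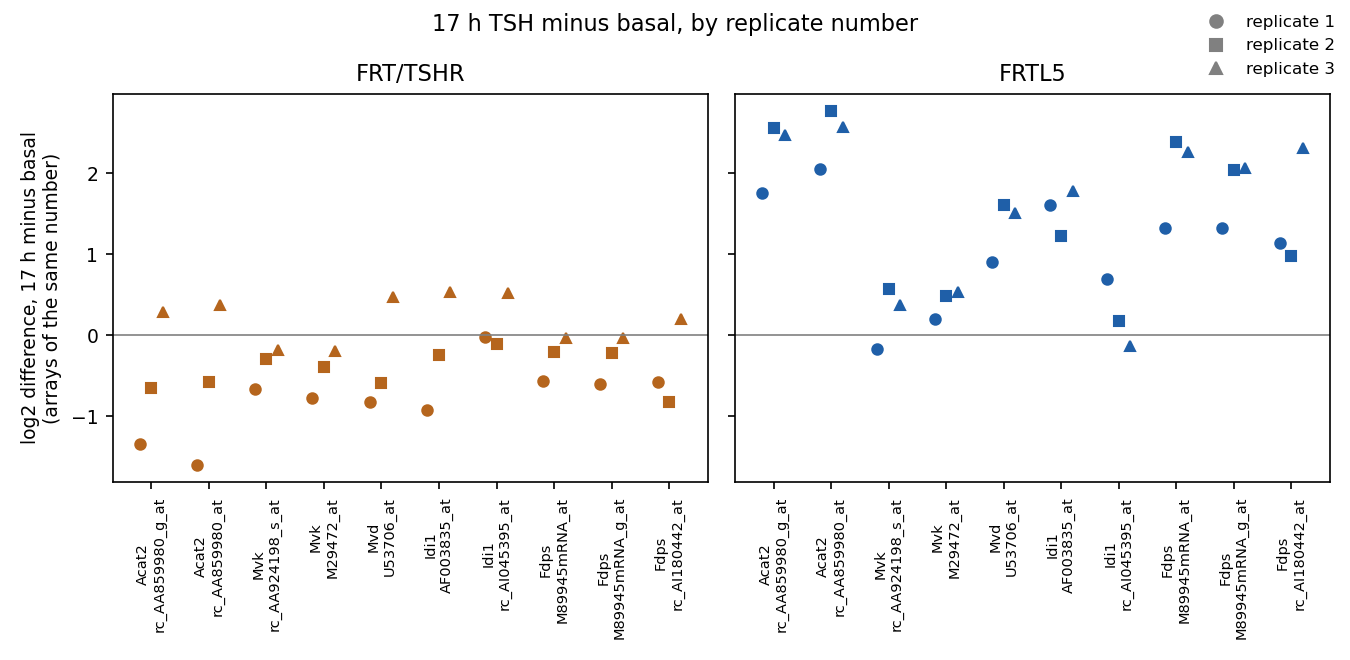
Difference between 17 h of TSH and basal (log2) for arrays of the same replicate number, per member probe set, with FRT/TSHR in the left panel and FRTL5 in the right. Each point is 1 pair of arrays. In FRTL5 the pairs of Acat2, Mvd and Fdps and of the brighter Idi1 probe set all lie above 0, and in FRT/TSHR the Acat2 pairs run from -1.34 to 0.29 for the brighter probe set.

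At 30 min no FRTL5 member passed. Their differences from basal lay between -0.18 and 0.18 (log2), 6 positive and 4 negative, and 0 of 10 passed, beside 0.24% of all probe sets. By limma's unadjusted p under 0.05, 0 members and 241 of all probe sets (2.76%) passed. That share is below the 0.05 that would pass without any difference, so not passing is not evidence of no change here. Acat2 averaged 7.44 ± 0.32 at 30 min and 7.45 ± 0.24 at basal, a difference of -0.01 ± 0.29 (interval -0.63 to 0.6). Fdps averaged 8.29 ± 0.22 at 30 min and 8.12 ± 0.23 at basal, a difference of 0.16 ± 0.19 (interval -0.24 to 0.57). For these genes and for Idi1 the interval at 30 min lay below the whole interval at 17 h. Its upper end was 0.77 for Idi1, whose interval at 17 h began at 0.94.

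Against 30 min of TSH, both Acat2 probe sets, Mvd, the brighter Idi1 probe set and 2 Fdps probe sets passed, 6 of 10 and all higher at 17 h than at 30 min, where 1.86% of all probe sets were higher. Acat2 was 4.84-fold higher at 17 h than at 30 min (difference 2.28 ± 0.29, adjusted p = 0.00039), and Fdps 3.55-fold (1.83 ± 0.19, adjusted p = 6.91e-05). Idi1 averaged 6.83 ± 0.4 at 17 h and 5.47 ± 0.11 at 30 min (1.37 ± 0.28, adjusted p = 0.0121), and Mvd 7.79 ± 0.51 at 17 h and 6.63 ± 0.15 at 30 min (1.16 ± 0.26, adjusted p = 0.0186). Both 17 h comparisons use the same 3 arrays. Mvd lost its call without replicate 2 or 3 of the 17 h group or replicate 1 or 2 of the 30 min group (0.97 to 1.13, adjusted p of 0.0569 to 0.0907), and with the compared arrays alone (1.16, adjusted p = 0.0679). Idi1 lost it without replicate 1 of the 17 h group (1.16, adjusted p = 0.0509) or replicate 2 of the 30 min group (1.31, adjusted p = 0.0563). rc_AI180442_at of Fdps passed only with the replicate block (1.55 ± 0.31, adjusted p = 0.00473) or with the compared arrays alone (adjusted p = 0.0414), and Mvk M29472_at only without the arrays numbered 1 (0.52 ± 0.12, adjusted p = 0.0373).

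In FRT/TSHR cells, which received TSH at 1 U/L, no member passed at either time. After 17 h 9 of the 10 differences from basal were negative, with a median of -0.35 (log2) and a range of -0.6 to 0.13, beside a median of 0.01 over all probe sets. The percentage of all probe sets that passed was 0.0% for each of the 3 comparisons within this line. By limma's unadjusted p under 0.05 no member passed in any of the 3, while 208 of all probe sets (2.38%) did at 30 min, 108 (1.24%) at 17 h, and 179 (2.05%) between the times. Each share is below the 0.05 that would pass without any difference, and these fits left the replicate pairing out. With the replicate number as a block, no probe set passed in any of the 3 comparisons either. Not passing is still not evidence of no change. At 30 min all 10 member differences were negative, from -0.91 to -0.03 with a median of -0.18, where 41.9% of all probe sets were negative.

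Acat2 averaged 9.85 ± 0.79 at 17 h and 10.41 ± 0.06 at basal in FRT/TSHR cells, a difference of -0.57 ± 0.29 (interval -1.18 to 0.05, adjusted p = 1.0). Fdps averaged 11.15 ± 0.17 at 17 h and 11.43 ± 0.13 at basal (-0.27 ± 0.19, interval -0.68 to 0.13), and Mvd 8.12 ± 0.62 at 17 h and 8.43 ± 0.11 at basal (-0.32 ± 0.26, interval -0.87 to 0.24). For these genes, a rise of the size seen in FRTL5 lay outside the interval. Idi1 averaged 8.8 ± 0.49 at 17 h and 9.01 ± 0.43 at basal (-0.21 ± 0.28, interval -0.81 to 0.38), and Mvk M29472_at 8.34 ± 0.41 at 17 h and 8.79 ± 0.17 at basal (-0.45 ± 0.26, interval -1.01 to 0.1). The 17 h arrays lay below all basal arrays for 2 of the 10 probe sets, Fdps M89945mRNA_at and Mvk M29472_at, and for 2.67% of all probe sets. Between 30 min and 17 h the member differences ran from -0.37 to 0.51.

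The FRT/TSHR replicates parted at 17 h. The median SD of a member was 0.453 in this group, against 0.175 in basal FRT/TSHR cells, while the median over all probe sets was 0.152 at 17 h and 0.135 at basal. Replicate 1 was the lowest of its group for 7 of the 10 probe sets and replicate 3 the highest for 7. Against the basal array of the same number, Acat2 differed by -1.34 in replicate 1, -0.65 in replicate 2 and 0.29 in replicate 3. Mvd gave -0.82, -0.59 and 0.47 and Idi1 -0.92, -0.24 and 0.53, so replicate 3 went the other way from replicates 1 and 2 for these 3 genes. Fdps gave -0.57, -0.21 and -0.04. In FRTL5 the median member SD was also higher at 17 h (0.416) than at basal (0.251), beside 0.158 at 17 h and 0.173 at basal over all probe sets.

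**Figure D3:**
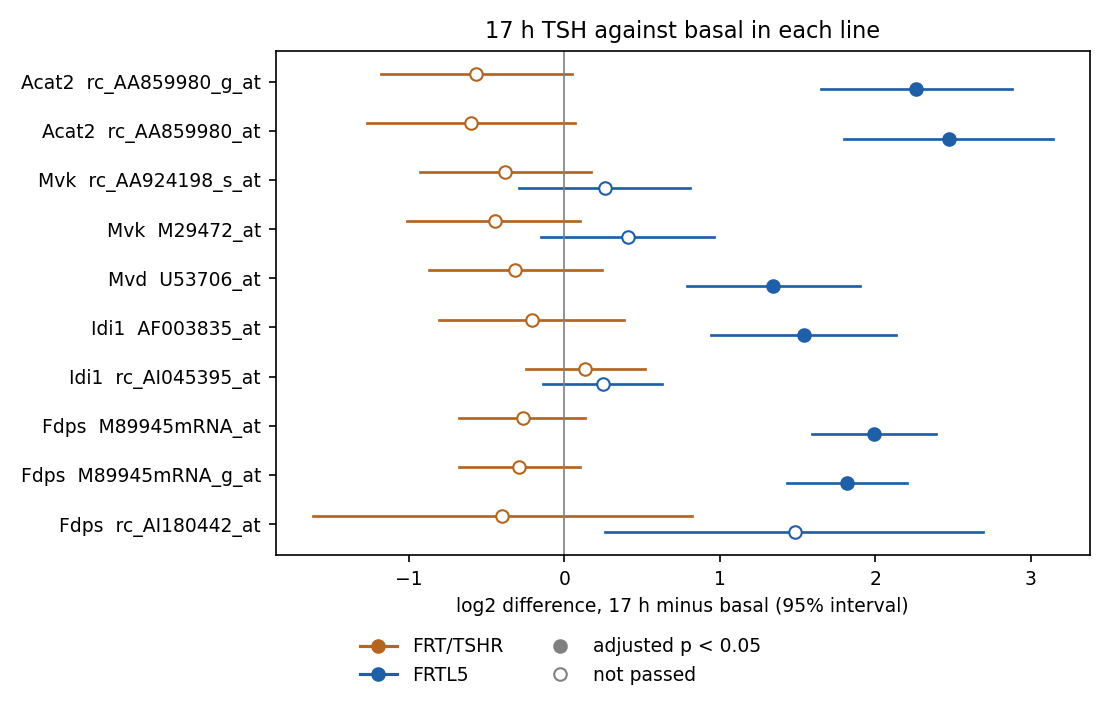
Difference between 17 h of TSH and basal (log2) with its 95% interval for each member probe set, FRT/TSHR above FRTL5 in each row, with filled points where the adjusted p was under 0.05. In FRTL5 6 of 10 are filled, all right of 0, and in FRT/TSHR none is, with differences from -0.6 to 0.13.

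The lines' responses at 17 h were set against each other by the difference of the effects (FRT/TSHR effect minus FRTL5 effect), which uses all 4 groups. For 5 of the 10 probe sets the FRT/TSHR effect was lower past the threshold, where 0.481% of all probe sets were. Acat2 differed by -2.83 ± 0.41 (interval -3.7 to -1.96, adjusted p = 0.00402) and by -3.07 ± 0.45 in its second probe set. Fdps differed by -2.27 ± 0.27 (interval -2.84 to -1.7, adjusted p = 0.00139) and -2.11 ± 0.26 (adjusted p = 0.00152). Mvd differed by -1.66 ± 0.37 (interval -2.44 to -0.87, adjusted p = 0.0492). All 10 differences were negative, with a median of -1.81. These comparisons share their basal and 17 h arrays with the ones above, and are not separate evidence.

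With the replicate number within each line as a block, 8 of the 10 members passed, and 365 of all probe sets against 69 without it. The 3 gained were Idi1 AF003835_at (-1.75 ± 0.29, adjusted p = 0.00601, against 0.0553 without the block), Mvk M29472_at (-0.86 ± 0.19, adjusted p = 0.0225, against 0.504) and Fdps rc_AI180442_at (-1.88 ± 0.44, adjusted p = 0.0266, against 0.504). Idi1 also passed without FRT/TSHR 17 h replicate 3 (-2.03, adjusted p = 0.0172) or FRTL5 basal replicate 1 (-1.92, adjusted p = 0.0464), with quantile normalization (-1.81, adjusted p = 0.032) and among the brighter probe sets only (adjusted p = 0.038). The call of Mvd held without replicate 1 of the FRTL5 17 h group (-1.95, adjusted p = 0.0122) or replicate 3 of the FRT/TSHR 17 h group (-2.0, adjusted p = 0.00452). It was lost without any of the other 10 arrays compared (-1.71 to -1.4, adjusted p of 0.0814 to 0.118) and without all arrays numbered 1 (-1.62, adjusted p = 0.0562). The compared arrays alone, median centring and an intensity trend also left it short (-1.66, adjusted p of 0.0514 to 0.125). At 30 min the differences of the effects ran from -0.84 to 0.02, and 0 of 10 passed, beside 0.0343% of all probe sets. None passed at an unadjusted p under 0.05 by limma either, against 227 of all probe sets (2.6%), a share again below 0.05.

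Without hormone the pathway stood far higher in FRT/TSHR cells than in FRTL5 cells. By their brighter probe sets Idi1 was 13.1-fold higher, Fdps 9.86-fold, Acat2 7.79-fold, Mvd 3.95-fold and Mvk 3.37-fold. Of the 10 probe sets 9 passed as higher in FRT/TSHR, beside 13.3% of all probe sets, and the median difference was 3.11 (log2), beside -0.04 over all. All 10 had every FRT/TSHR array above every FRTL5 array, as did 17.5% of all probe sets.

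Idi1 averaged 9.01 ± 0.43 in basal FRT/TSHR cells and 5.3 ± 0.31 in basal FRTL5 cells, a difference of 3.71 ± 0.28 (SE, interval 3.12 to 4.31, adjusted p = 4.36e-08). Fdps averaged 11.43 ± 0.13 in FRT/TSHR and 8.12 ± 0.23 in FRTL5 (3.3 ± 0.19, adjusted p = 1.47e-09). Its probe set M89945mRNA_g_at had the smallest adjusted p of the members (3.25 ± 0.18, adjusted p = 1.17e-09), and rc_AI180442_at also passed (3.61 ± 0.57, adjusted p = 0.000149). Acat2 differed by 2.96 ± 0.29 (interval 2.35 to 3.58) and 3.36 ± 0.32 (interval 2.69 to 4.03). Mvd averaged 8.43 ± 0.11 in FRT/TSHR and 6.45 ± 0.13 in FRTL5 (1.98 ± 0.26), and the Mvk probe sets differed by 1.93 ± 0.26 and 1.75 ± 0.26. The dim Idi1 probe set averaged 3.87 ± 0.18 in FRT/TSHR and 3.43 ± 0.11 in FRTL5 and did not pass (0.44 ± 0.18, adjusted p = 0.0922), though it did by a narrow margin with quantile normalization (0.48, adjusted p = 0.0499) or the compared arrays alone (adjusted p = 0.0479).

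After 17 h of TSH the gap between the lines was smaller for every bright member, and no longer past the threshold for Acat2 and Mvd. This narrowing is the same quantity as the difference of the effects at 17 h, not a separate result. In the main fit it did not pass for Idi1, Mvk or the third Fdps probe set. Acat2 averaged 9.85 ± 0.79 in FRT/TSHR and 9.71 ± 0.21 in FRTL5, a difference of 0.13 ± 0.29 whose interval ran from -0.48 to 0.75. The second Acat2 probe set differed by 0.29 ± 0.32 (interval -0.38 to 0.96), and Mvd by 0.33 ± 0.26 (interval -0.23 to 0.88). These intervals still allow a gap of either sign. Of the 10 probe sets 6 passed as higher in FRT/TSHR, beside 11.5% of all, and 6 did not overlap between the lines, beside 15.5% of all. Idi1 had the largest gap, at 8.8 ± 0.49 in FRT/TSHR and 6.83 ± 0.4 in FRTL5 (1.96 ± 0.28, 3.9-fold, adjusted p = 6.59e-05).

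Fdps differed by 1.04 ± 0.19 (adjusted p = 0.000688) and 1.14 ± 0.18 between the lines at 17 h, and Mvk by 1.07 ± 0.26 (adjusted p = 0.00681) and 1.12 ± 0.26. Mvk M29472_at lost its call with the compared arrays alone (adjusted p = 0.0536). The third Fdps probe set passed (1.73 ± 0.57, adjusted p = 0.0432), but did so in leave-one-out fits only without FRT/TSHR replicate 2. Without any of the other 5 arrays it differed by 1.3 to 1.93 (adjusted p of 0.0558 to 0.201), and without all arrays numbered 1 by 1.62 (adjusted p = 0.187). The dim Idi1 probe set differed by 0.33 ± 0.18 and passed without FRTL5 17 h replicate 1 (0.58, adjusted p = 0.0117) or without all arrays numbered 1 (0.62, adjusted p = 0.0298).

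**Figure D4:**
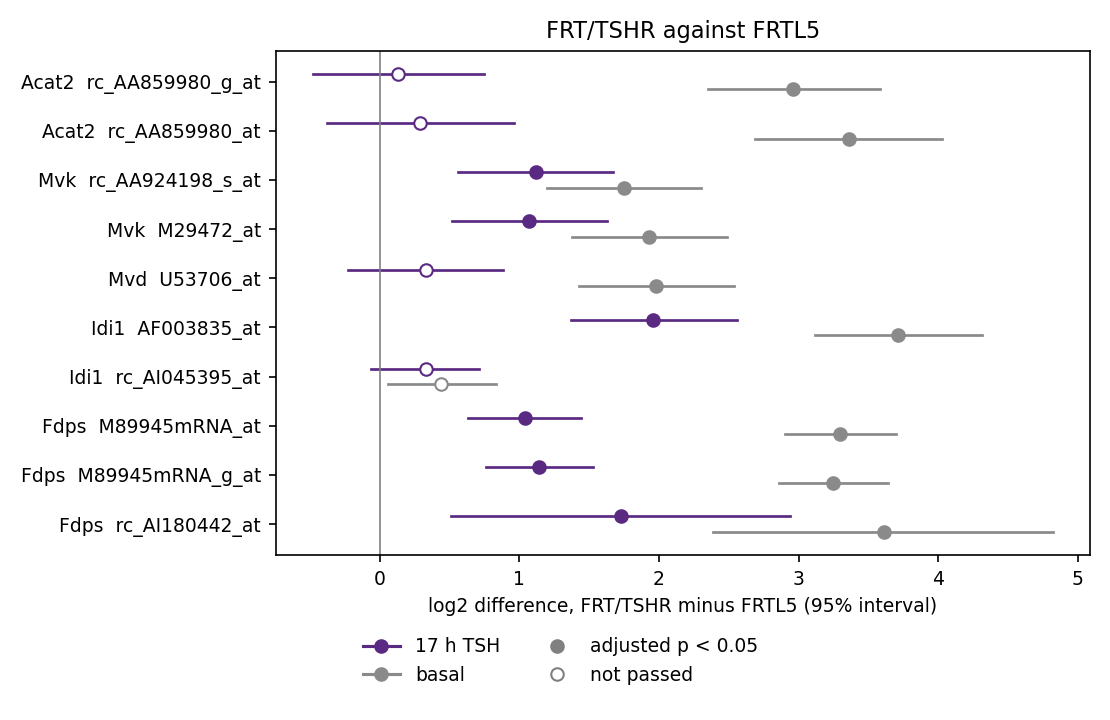
Difference between FRT/TSHR and FRTL5 cells (log2, FRT/TSHR minus FRTL5) with its 95% interval for each member probe set, after 17 h of TSH above basal in each row, with filled points where the adjusted p was under 0.05. At basal 9 of 10 are filled and reach 3.71, and at 17 h 6 of 10 are filled and reach 1.96.

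The genes around the pathway are given from lists chosen by function, each gene by its brightest probe set, in FRTL5 at 17 h against basal. Among all 4736 genes with 1 symbol, 1.86% were called higher and 2.26% lower, 52.4% of the differences were positive and the median was 0.01. Of the enzymes from squalene to cholesterol, which use the farnesyl diphosphate that Fdps makes, 10 of 16 listed symbols were measured, 4 passed as higher and 0 as lower. All 10 were positive, with a median of 0.82. Cyp51, the lanosterol demethylase, was 4.94-fold higher (2.3 ± 0.26, adjusted p = 0.000266), and Hsd17b7, a sterol 3-ketoreductase, 2.35-fold (1.23 ± 0.17, adjusted p = 0.000818). Fdft1, the squalene synthase that draws directly on farnesyl diphosphate, rose by 0.82 ± 0.16 (adjusted p = 0.00759), and Dhcr7, which makes cholesterol in the last step, by 1.34 ± 0.28 (adjusted p = 0.0143). Their rise is given beside that of the members as a count and was not compared with it by a test.

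Of the 5 genes measured for the supply of acetyl-CoA, 2 passed as higher and 0 as lower, and the median was 0.53. These were Me1, the malic enzyme that yields NADPH (1.5 ± 0.29, adjusted p = 0.00919), and Acly, which splits citrate into cytosolic acetyl-CoA (1.08 ± 0.26, adjusted p = 0.0296). Of 6 measured genes of sterol regulation and uptake 1 passed as higher, Insig1, which retains the SREBP complex in the endoplasmic reticulum and is itself an SREBP target (0.81 ± 0.18, adjusted p = 0.0212). The median of that list was 0.15. On the prenyl branch after farnesyl diphosphate, 5 protein prenyltransferase subunits were measured, 0 passed, 0 were positive and the median was -0.17. Of 6 measured relatives of the members in ketone body, fatty acid and sterol ester metabolism 0 passed, with a median of 0.08, and Acaa2, a mitochondrial thiolase, had -0.12 ± 0.1.

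**Figure D5:**
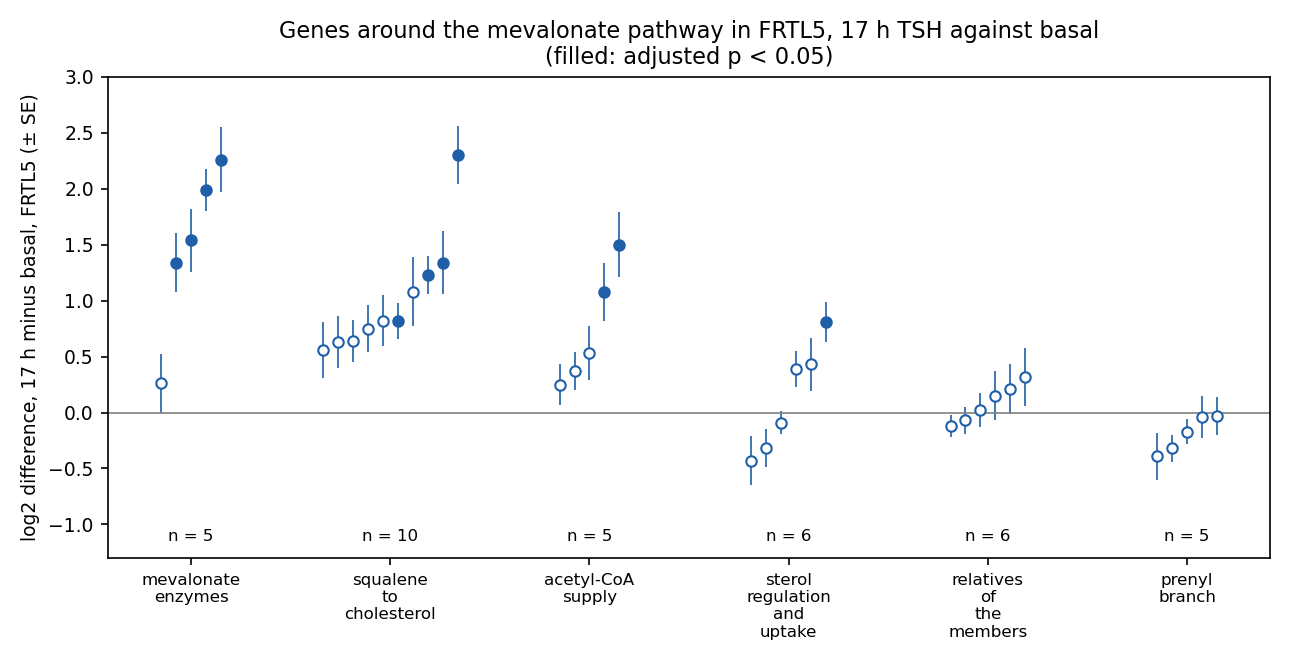
Difference between 17 h of TSH and basal in FRTL5 cells (log2, ± SE) for the genes of the mevalonate pathway and of 5 lists around it, each point a gene by its brightest probe set, filled where the adjusted p was under 0.05. Filled points stand at 4 of 5 mevalonate enzymes, 4 of 10 squalene to cholesterol enzymes, 2 of 5 acetyl-CoA supply genes and 1 of 6 regulators, and at none of the prenyl branch or the relatives.

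In FRT/TSHR at 17 h no gene of the 5 lists passed, and the enzymes from squalene to cholesterol had a median of -0.25 with 2 of 10 positive. By the difference of effects Cyp51 (-2.28 ± 0.37, adjusted p = 0.0104) and Hsd17b7 (-1.5 ± 0.24, adjusted p = 0.00746) passed beside Acat2, Fdps and Mvd. Without hormone 7 of the 10 squalene to cholesterol enzymes were higher in FRT/TSHR than in FRTL5, beside 14.8% of all genes, with Cyp51 at 3.44 ± 0.26, Fdft1 at 2.73 ± 0.16 and Dhcr7 at 2.49 ± 0.28. Insig1 was higher as well (1.98 ± 0.18, adjusted p = 4.76e-07). The prenyl branch genes gave 0 of 5 in either direction. Acat1, the mitochondrial counterpart of Acat2, went the other way and was lower in FRT/TSHR (-1.0 ± 0.22, adjusted p = 0.0028).

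How alike the members ran over the 18 arrays was described with Pearson's r after subtracting each line's mean, each gene by its brightest probe set. These arrays share lines, TSH times and replicate numbers, so r is a description only. Acat2 and Fdps were the closest pair (r = 0.938), followed by Acat2 and Mvd (0.92) and Fdps and Mvd (0.883). Idi1 ran with Acat2 at 0.868 and with Fdps at 0.788. Mvk, by rc_AA924198_s_at, stood apart from the other members, at 0.606 with Mvd, 0.407 with Fdps, 0.373 with Acat2 and 0.018 with Idi1. On the FRTL5 arrays numbered 1, which differ in beta-actin signal, it was the lowest of its group each time (6.67, 6.65 and 6.5). Idi1 was the highest of its group on the same arrays (5.64, 5.58 and 7.25). The r without these arrays was not computed.

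Of all other genes, the 6 most like the mean of the 5 members were Hsd17b7 (0.938), Ahcy (0.932), Tubb5 (0.924), Tyms (0.919), Prim1 (0.918) and Cyp51 (0.914). Hsd17b7 and Cyp51 are sterol enzymes, Ahcy hydrolyses S-adenosylhomocysteine, Tubb5 is a beta-tubulin, and Tyms and Prim1 supply thymidylate and primers for DNA replication. The 3 most opposed were Traf3ip2 (-0.892), Itm2b (-0.886) and Cpq (-0.876). By single members, Fdps was most like the iodide symporter gene Slc5a5 (0.943) and Fdft1 (0.937), Acat2 like Hsd17b7 (0.954) and Tyms (0.943), Mvd like Tubb5 (0.908) and Rpn2 (0.907), and Idi1 like Nxt1 (0.905) and Rrbp1 (0.904). Mvk was most like Ncaph2 (0.899) and Rab4a (0.894). Slc5a5 rose by 2.62 ± 0.18 in FRTL5 at 17 h (adjusted p = 1.86e-06), but unlike Fdps it was lower in basal FRT/TSHR than in basal FRTL5 cells (-1.2 ± 0.18, adjusted p = 9.56e-05).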

How the data were processed

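The authors' table holds 1 log2 value per probe set and array, 18 arrays in all. The authors used RMA for these log2 values, per the submitters' processing notes, a method that subtracts background, equalizes the arrays and sums up the probes of a probe set, so low signals are compressed. The RMA version is not given in the sources used here, and the values themselves show the scale. Of 8799 probe sets 59 controls were left out and 8740 tested without a filter on signal. The platform annotation gave 1 symbol to 7006 of them, several to 308 (no member symbol among these) and none to 1426.

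Group means were fitted to all 18 arrays with limma 3.58.1 (R 4.3.3; lmFit and eBayes), with two-sided moderated tests and Benjamini-Hochberg adjustment over 8740 probe sets within each of 10 comparisons, at a threshold of 0.05. SE and 95% intervals are limma's. The fits were tested on simulated data drawn independently for each array, so that test does not cover the replicate pairing. The members, gene lists, motifs and tests were chosen with earlier results of these data known. All member probe sets are described, and of each list up to 4 genes that passed, or the 1 with the smallest p, of which 1 is not reported here.

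Replicate numbers come from the labels. Deviations from group means correlated for all 18 pairs of arrays of the same line and number (r of 0.148 to 0.798, median 0.45), against -0.639 to 0.628 (median -0.292) for other numbers of the line and -0.217 to 0.42 for the same number across lines. The number was therefore taken as a pairing within a line only, although the closest array in another group of the line had the same number in 30 of 36 cases, not in all. The exception was the block alternative for FRT/TSHR against FRTL5 at basal and at 17 h, which used the number shared across the lines. The main fits used no pairing, so their spread includes differences between replicate numbers. Alternatives were the replicate block, the compared arrays alone, quantile normalization, median centring, the brighter probe sets only, an intensity trend, no arrays numbered 1, and each array left out. Genome positions and promoters are RefSeq's on GRCr8. Array number limits the precision.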

Additional observations from a re-analysis of the deposited data

Results flagged for a closer look

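The change from basal to 17 h of TSH differed between the lines for 5 probe sets of 3 genes. The test was limma's, of the difference of the effects (FRT/TSHR effect minus FRTL5 effect, Benjamini-Hochberg over 8740 probe sets). Of all probe sets, 0.481% passed with the FRT/TSHR effect lower, the direction of these 5. For Acat2 the difference was -2.83 (log2) in rc_AA859980_g_at and -3.07 in rc_AA859980_at. For Fdps it was -2.27 in M89945mRNA_at and -2.11 in M89945mRNA_g_at. For Mvd it was -1.66 in U53706_at, the value nearest the threshold. That call was lost in 10 of 12 fits with 1 array left out, and under other alternatives given with the results.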

How the results depend on the processing

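No member that had passed changed its sign under any alternative. Over 690 member values under the alternatives other than leaving out 1 array, 668 stayed on their side of the threshold, 8 lost a call and 14 gained one. Over 720 values with 1 array left out, 695 stayed on their side, 22 lost a call and 3 gained one. The sign turned in 8 of the 690 and 38 of the 720 values, which belong to 23 member differences, and 0 of these values passed with either sign. The number of members called in the difference of effects at 17 h was 5, against 8 with the replicate block, and 4 to 6 with 1 array left out. Counts over all probe sets moved more. With the replicate block they were 40 for FRTL5 at 30 min (21 without it), 867 at 17 h (311), 916 between the times (368), 8 for the difference of effects at 30 min (3) and 365 at 17 h (69), and the block changed no other member call than those given beside the results. With the compared arrays alone the same 5 counts were 2, 96, 189, 1 and 22. Without all arrays numbered 1 they were 52 for FRTL5 at 30 min, 25 for the difference of effects at 30 min, and 2 each in FRT/TSHR at 30 min and between the times, against 0 and 0. With 1 array left out the counts ran from 12 to 44 for FRTL5 at 30 min, 152 to 253 at 17 h, 145 to 270 between the times, 0 to 8 in FRT/TSHR between the times, and 1 to 24 and 33 to 83 for the differences of effects at 30 min and 17 h. A group left with 2 arrays used the spread pooled over groups. Quantile normalization and median centring shifted the median of a group by at most 0.0325 (log2). The causes were not tested. No background-corrected intensities were used here, so signal over background limits the dim probe sets by an amount not measured.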
